A study of Mus musculus with 6 samples.

Results

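The primary, or azurophil, granule genes of neutrophil precursors were examined in the cochlea of ageing mice. The set held Mpo, Elane, Prtn3, Ctsg, Ms4a3 and Ctsc, chosen by name, and every probe set that the platform annotation gives to exactly 1 of these symbols was taken. This gave 6 genes of 12393 named by a single symbol, each with 1 probe set of the 22626 on the array. Total RNA came from cochleae, the coiled sound-sensing organs of the inner ear. The donors were male DBA/2J mice, inbred animals whose hearing fails from a young age. There were 3 samples from mice aged 36 weeks and 3 from mice aged 7 weeks, all of the same strain and sex, with no treatment or transgene named. Each was hybridised to its own 1-colour Affymetrix array, which reports a linear signal per probe set. The question put by the design is which transcripts differ between the older, hearing-impaired cochlea and the young one. Whether a sample pooled several mice is not stated, so p-values measure the spread between these samples.

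Azurophil granules are the first granules that a neutrophil precursor makes, at the promyelocyte stage in the bone marrow. Their transcripts are abundant there and decline as the cell matures, whereas genes of secondary and tertiary granules are switched on later. Myeloperoxidase (Mpo) uses hydrogen peroxide to make hypochlorous acid. Neutrophil elastase (Elane), proteinase 3 (Prtn3) and cathepsin G (Ctsg) are related serine proteases that are made as inactive zymogens. Cathepsin C (Ctsc), a cysteine protease found in many cell types, trims the amino-terminal dipeptide of these zymogens and so activates them. Ms4a3 encodes a membrane protein of granulocyte and monocyte progenitors and is not itself a granule enzyme. The temporal bone around the cochlea holds marrow.

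All 6 genes lie on chromosomes 7, 10, 11, 14 and 19, with Prtn3 and Elane next to each other on chromosome 10. Their upstream sequences are shown because the genes moved in the same direction between the ages. They were taken from RefSeq (GRCm38.p6), which matched 6 of 6 symbols, and run 5′ to 3′ on the strand of the gene. Each whole sequence spans 250 bases before to 50 bases after the annotated start, and 60-base stretches are shown for Ctsg, Ms4a3 and Ctsc. Capitals mark GGAAGT or its reverse complement ACTTCC, the core bound by ETS factors such as PU.1, and AACGG, a core bound by MYB.
Mpo, chr11:87793534-87793833, plus strand: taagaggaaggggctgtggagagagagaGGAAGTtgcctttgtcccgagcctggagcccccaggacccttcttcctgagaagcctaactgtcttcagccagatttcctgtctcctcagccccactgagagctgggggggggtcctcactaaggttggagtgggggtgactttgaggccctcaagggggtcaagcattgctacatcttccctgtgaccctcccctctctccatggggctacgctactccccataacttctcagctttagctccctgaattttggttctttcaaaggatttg
Elane, chr10:79886062-79886361, plus strand: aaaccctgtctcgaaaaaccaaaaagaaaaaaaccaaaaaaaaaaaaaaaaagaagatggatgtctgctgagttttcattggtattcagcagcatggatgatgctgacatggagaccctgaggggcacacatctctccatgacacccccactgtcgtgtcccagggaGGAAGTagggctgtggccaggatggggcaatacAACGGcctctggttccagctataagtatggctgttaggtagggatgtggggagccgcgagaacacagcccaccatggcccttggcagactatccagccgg
Prtn3, chr10:79879417-79879716, plus strand: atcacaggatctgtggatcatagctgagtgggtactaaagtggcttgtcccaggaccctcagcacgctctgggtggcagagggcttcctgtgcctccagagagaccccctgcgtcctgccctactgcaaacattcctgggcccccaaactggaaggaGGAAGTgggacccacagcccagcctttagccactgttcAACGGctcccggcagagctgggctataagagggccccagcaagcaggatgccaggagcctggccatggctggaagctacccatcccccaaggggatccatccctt
Ctsg, chr14:56102747-56102806, minus strand: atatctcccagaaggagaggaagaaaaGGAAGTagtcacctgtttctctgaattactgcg
Ms4a3, chr19:11640874-11640933, minus strand: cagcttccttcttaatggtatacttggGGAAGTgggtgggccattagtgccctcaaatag
Ctsc, chr7:88277907-88277966, plus strand: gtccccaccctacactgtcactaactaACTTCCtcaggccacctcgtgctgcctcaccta

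The motifs were searched on both strands with the sequences already in view, so the counts are a description. GGAAGT stood in 6 of the 6 member promoters, against 23.8% of 32851 promoters of the same length. The longer GAGGAAGT, which contains it, stood in 4 of 6 (Mpo, Elane, Prtn3 and Ctsc), against 3.2% of all promoters. AACGG stood in Elane and Prtn3, against 17.4% of all promoters. The neighbours Elane and Prtn3 carried GAGGAAGT and AACGG in the same order and at like distances from the start. GAGGAAGT began at base -85 in Elane and at -95 in Prtn3, and AACGG began at -50 and -55. TTGCNNAA, a form of the C/EBP site, stood in Ms4a3 alone among the 6, after its start site, against 10.8% of all promoters.

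The signals of all 6 genes were higher at 36 weeks, and the 3 arrays of 36 weeks lay above the 3 arrays of 7 weeks for each. Prtn3, Mpo and Ctsg were 14.2 to 16.6 times as high, Elane 10.2 times, Ms4a3 3.69 times and Ctsc 2.35 times. By limma, fitted over all 13575 probe sets above a filter on dim signals, 6 of 6 passed a Benjamini-Hochberg adjusted p of 0.05, all of them higher. Over all tested probe sets 16.7% passed as higher and 17.7% as lower (2267 and 2398), 34.4% in all. The split was 1738 higher and 3088 lower when each array was centred on its median. The 36-week arrays lay wholly above the 7-week arrays for 23.7% of all tested probe sets. In whole tissue, more cells of a type and more RNA per cell cannot be told apart. Log2 differences below are 36 weeks minus 7 weeks on the scale of log2(signal + 50), with standard errors (SE), and folds are ratios of mean signals.

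Mpo, the peroxidase of the granule, had signals of 36705, 38739 and 35664 on the 36-week arrays, against 2618, 2461 and 2369 on the 7-week arrays. The arrays of each age stayed close to one another, with standard deviations of 4.22% and 5.07% of the mean. The mean was 14.9 times as high at 36 weeks, and the smallest ratio between any old and any young array was 13.6. The log2 difference was 3.87 ± 0.07 (SE, n = 3 per age; limma adjusted p = 9.44e-11), which ranked 31 from the top of all tested probe sets.

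Prtn3, whose product degrades matrix proteins and is the classic autoantigen of granulomatous vasculitis in man, had signals of 14543, 15094 and 16336 at 36 weeks, against 959.1, 872.5 and 941.9 at 7 weeks. It showed the largest difference of the 6 genes, at 3.98 ± 0.09 or 16.6 times (limma adjusted p = 4.58e-10). Elane, the elastase encoded beside it, had signals of 15826, 15641 and 14559 at 36 weeks, against 1535, 1572 and 1391 at 7 weeks. Its difference was 3.31 ± 0.09, or 10.2 times (limma adjusted p = 1.38e-09). The difference was smaller for Elane than for its neighbour. Within an array, the signal of Elane over that of Prtn3 was 1.09, 1.04 and 0.891 at 36 weeks, against 1.60, 1.80 and 1.48 at 7 weeks. The ratios of the ages did not overlap, with means of 1.01 ± 0.10 and 1.63 ± 0.16 (SD, n = 3 each). This ratio was looked at after the values were known and was not tested.

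Ctsg, the protease of the set with chymotrypsin-like activity, had signals of 5037, 5168 and 4913 at 36 weeks, against 623.5, 245.4 and 193.3 at 7 weeks. The old arrays were nearly level, while 7-week array 1 was well above the other young arrays, so that the standard deviation at 7 weeks was 66.3% of the mean. The log2 difference was 3.80 ± 0.31, or 14.2 times (limma adjusted p = 7.12e-06), with a 95% interval of 3.12 to 4.49. Its mean at 7 weeks, 354.1, lay below the filter signal of 593.6, so Ctsg entered the test through the 36-week arrays. It passed as well with no filter on dim signals (adjusted p = 4.79e-05). The other 5 genes were above the filter signal at each age.

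Ctsc, the activating protease, had signals of 3895, 4351 and 3869 at 36 weeks, against 1684, 1819 and 1654 at 7 weeks. The ages were well separated, but the rise was the smallest of the set, at 1.21 ± 0.11 or 2.35 times (limma adjusted p = 1.23e-05). Ms4a3, the progenitor membrane protein, had signals of 3730, 3951 and 3718 at 36 weeks, against 1020, 804.8 and 1267 at 7 weeks. Its standard deviation was 3.46% of the mean among the old arrays and 22.4% among the young ones. The difference was 1.85 ± 0.16, or 3.69 times (limma adjusted p = 9.50e-06).

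**Figure D1:**
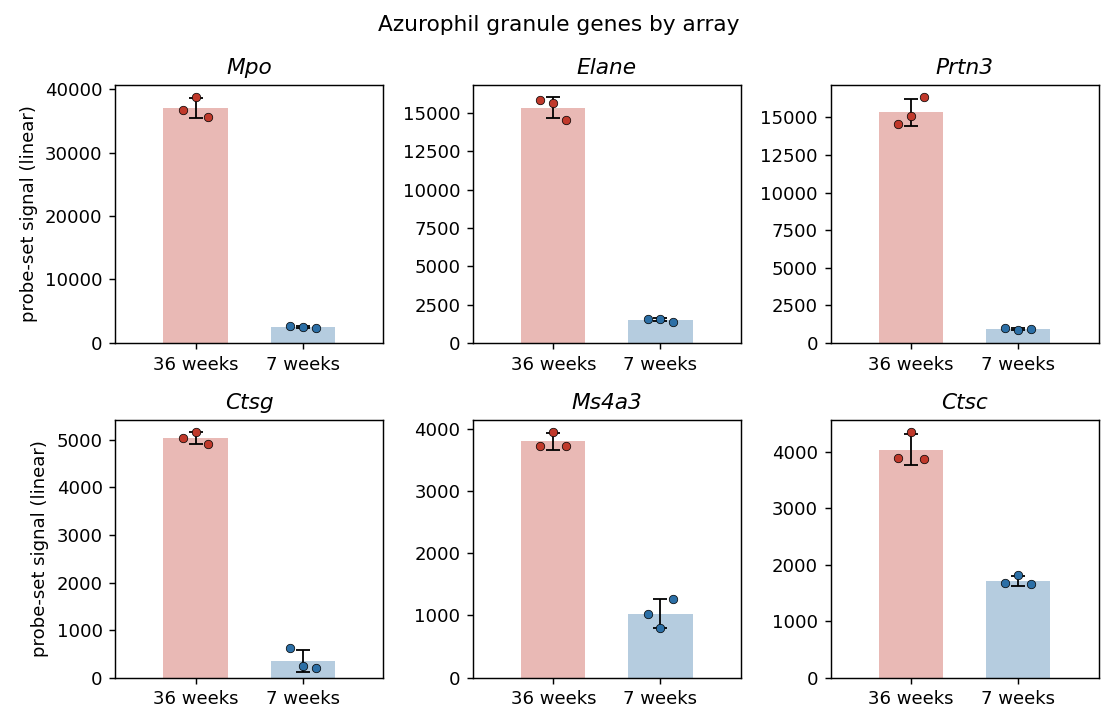
Probe-set signal (linear) of each gene at 36 weeks and at 7 weeks. Bars are means of 3 arrays, error bars the SD, and points single arrays; for Mpo the old arrays sit between 35664 and 38739 and the young ones between 2369 and 2618.

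**Figure D2:**
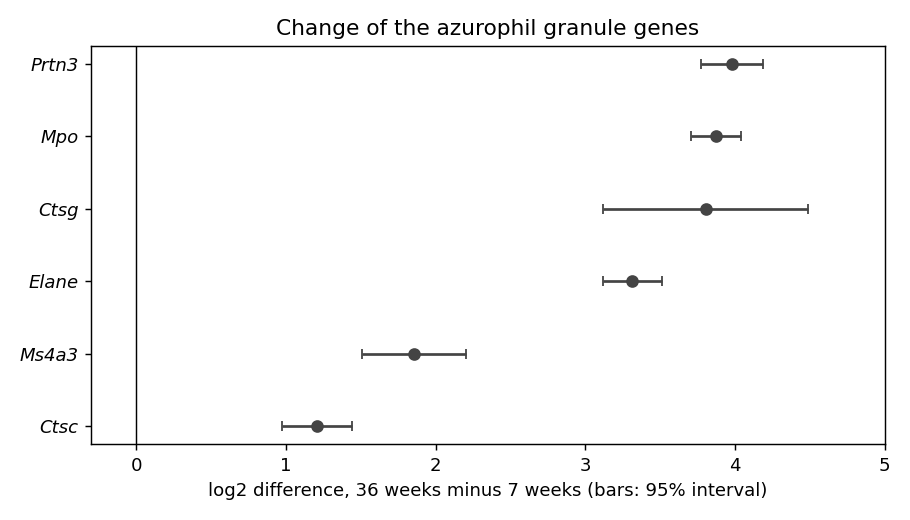
Log2 difference of each gene, 36 weeks minus 7 weeks, with its 95% interval from limma (n = 3 arrays per age). Prtn3, Mpo, Ctsg and Elane lie above 3, Ms4a3 at 1.85 and Ctsc at 1.21.

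In order of the difference, the genes ran Prtn3, Mpo, Ctsg, Elane, Ms4a3 and Ctsc. To see which moved by unequal amounts, each gene was set against Mpo within every array, on the log2 scale, and the 5 ratios were compared between the ages by a two-sided exact permutation test. With 3 arrays against 3 this test cannot give a p below 0.1. Adjusted values are by Benjamini-Hochberg over these 5 comparisons. Relative to Mpo, the log2 ratio of Ctsc differed by -2.66 ± 0.06, 36 weeks minus 7 weeks (SE; exact p = 0.1, adjusted 0.167). Ms4a3 differed by -2.02 ± 0.20 and Elane by -0.56 ± 0.05 (SE; exact p = 0.1, adjusted 0.167, for each). For these 3 genes every 36-week ratio lay below every 7-week ratio. Mpo ranked 31 from the top of all tested probe sets, so the mean ratio to it falls for every probe set ranked below. How many other probe sets were separated from Mpo in this way was not counted. Prtn3 against Mpo differed by 0.11 ± 0.09 (exact p = 0.4, adjusted 0.5) and Ctsg by -0.069 ± 0.41 (exact p = 1, adjusted 1), and their ratios overlapped between the ages. The value for Ctsg was 0.34 without 7-week array 1. Its sign was positive with an offset of 1 or 16 as well, at 0.12 and 0.059. Prtn3 and Ctsg were thus not set apart from Mpo by these ratios, and they were not compared with each other. As the test cannot give a p below 0.1, this does not show that the 3 genes changed equally.

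**Figure D3:**
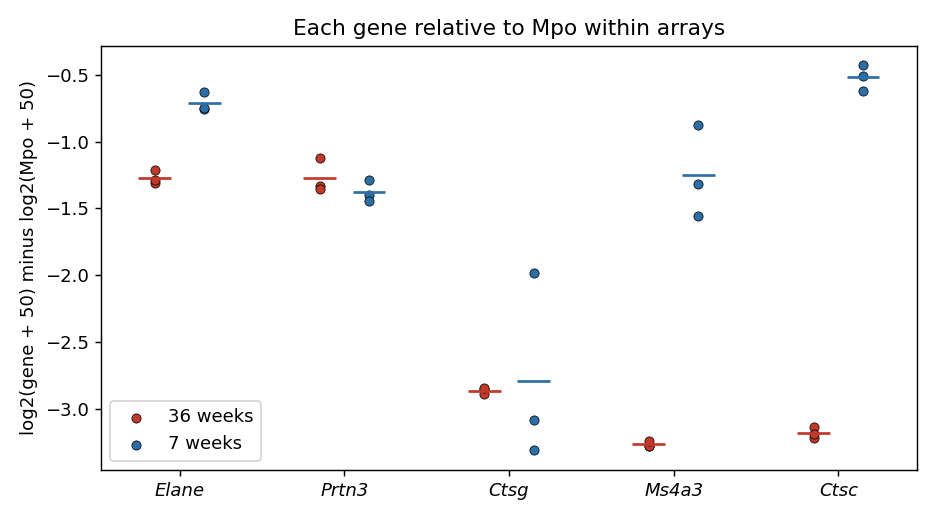
Log2 signal of each gene minus that of Mpo on the same array, at 36 weeks and at 7 weeks. Points are arrays and lines means; the ages are apart for Elane, Ms4a3 and Ctsc, and overlap for Prtn3 and Ctsg.

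Replicate arrays of 36 weeks gave much the same values for all 6 genes. Their deviations from the age mean ran from -0.074 to 0.11 on the log2 scale. At 7 weeks Mpo, Elane, Prtn3 and Ctsc deviated by -0.10 to 0.081, while Ctsg ran from -0.58 to 0.89 and Ms4a3 from -0.32 to 0.31. 7-week array 1 was the highest of its age for Ctsg and 7-week array 3 for Ms4a3, so no single young array was high for both.

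The genes beside the members on the chromosome were examined next, by the RefSeq gene order, with up to 3 genes taken on each side. Mpo lies in a cluster of peroxidase genes. Epx, the eosinophil peroxidase, had signals of 1256, 1171 and 1171 at 36 weeks, against 483.7, 421.1 and 464.5 at 7 weeks, and rose by 1.30 ± 0.20 (limma adjusted p = 0.000647), entering the test through the 36-week arrays. Lpo, lactoperoxidase of secretory epithelium, was below the filter, with signals of 435.5, 198.1 and 490.6 at 36 weeks, against 173.2, 149.2 and 385.6 at 7 weeks, which overlapped. Near the Prtn3 and Elane pair, Med16, a subunit of the Mediator complex, differed by 0.23 ± 0.11. Ptbp1, a splicing repressor on the other side, differed by 0.27 ± 0.13. Neither passed (limma adjusted p = 0.143 and 0.135). Each is the gene 3 steps from the pair. The nearer genes, Cfd and Plppr3 among them, had no probe set that names them alone and were not read. Ctsg lies in the locus of mast cell proteases and granzymes. Its neighbour Mcpt8, a basophil protease, rose by 2.33 ± 0.60 (limma adjusted p = 0.0125), and its mean at 7 weeks was a dim 336.1. Mcpt4, Gzme and Gzmd were below the filter and had no signal above 212 on any array. Near Ms4a3 lie other genes of its family. Ms4a6d was below the filter, with signals of 482.5, 712.4 and 754.2 at 36 weeks, against 128.0, 225.3 and 368.8 at 7 weeks, which did not overlap. Ms4a2, a chain of the IgE receptor, was also below it, with 319.9, 626.4 and 858.4 at 36 weeks, against 314.5, 62.7 and 348.7 at 7 weeks, which overlapped. On the other side of Ms4a3, Oosp1 differed by 0.15 ± 0.25 (limma adjusted p = 0.680). Near Ctsc, Rab38, a small GTPase of pigment granules, differed by 0.21 ± 0.28 (limma adjusted p = 0.595).

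Other proteins of the azurophil granule were mixed. Of 12 tested genes 6 rose and 1 fell, against shares of 16.7% and 17.7% over all tested probe sets. Their median log2 difference was 0.42, against 0.018 over all tested probe sets. Lyz2, lysozyme, had signals of 146459, 149260 and 144552 at 36 weeks, against 23195, 23340 and 23160 at 7 weeks, and rose by 2.66 ± 0.05 (limma adjusted p = 9.44e-11). Its near copy Lyz1 rose by 3.06 and was read by a probe set of the _x_at kind, which may cross-hybridise, so these lysozymes cannot be separated with certainty. Plac8, a small protein of myeloid progenitors, rose by 2.03 ± 0.11 and Man2b1, lysosomal mannosidase, by 0.81 ± 0.10. Nkg7 rose by 2.15 ± 0.42, with a 7-week mean of 245.8 that lay below the filter signal. Srgn, serglycin, the proteoglycan that holds the serine proteases in the granule, rose by 0.40 ± 0.09 (limma adjusted p = 0.00474), against 3.31 to 3.98 for the serine proteases. Fuca1, lysosomal fucosidase, had a difference of -0.44 and fell. Hexa, Gaa, Ctsz, Ctsd and Gusb, hydrolases of lysosomes in all cells, had differences between -0.14 and 0.44 and did not pass.

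Some inhibitors of the member proteases rose and others did not. In the list of protease inhibitors and processing enzymes 6 of 13 rose (16.7% over all tested probe sets) and 2 fell (17.7%), with a median of 0.13. The counts were 4 and 3 when arrays were centred on their medians. Serpinb1a and Serpina3n lay below the filter signal at 7 weeks and entered the test through the 36-week arrays. Serpinb1a, a serpin that inactivates elastase, proteinase 3 and cathepsin G, had signals of 4502, 3119 and 2927 at 36 weeks, against 327.5, 218.1 and 382.0 at 7 weeks. It rose by 3.31 ± 0.23, or 11.4 times (limma adjusted p = 2.20e-06), a size close to that of Elane. Slpi, an inhibitor of elastase and cathepsin G that mucosal epithelium also secretes, had signals of 6904, 5729 and 5927 at 36 weeks, against 1203, 1270 and 1248 at 7 weeks, a rise of 2.27 ± 0.11. Wfdc2, a related protein of airway and glandular epithelium, rose by 1.89 ± 0.07, and Serpina3n by 3.51 ± 0.32. A2m, a broad protease trap, fell by 1.83 ± 0.10, and Cst3, cystatin C, by 0.54 ± 0.07. Serpina1b and Cstb had differences of 0.13 and -0.10 and did not pass. Of the lysosomal cathepsins in the list, Ctss rose by 0.38 ± 0.12, while Ctsl, Ctsb and Ctsh had differences of -0.19, -0.079 and 0.039 and did not pass. Among dimmer probe sets of Ctsb, 1 passed as lower, at -0.57, and 1 as higher, at 0.41.

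The oxidase that supplies Mpo with peroxide moved in the same direction. The list read for it also holds Padi4 and Hvcn1, which are not subunits of the oxidase. Of 7 tested genes of this list 6 rose and 0 fell, with a median of 2.68, while 16.7% of all tested probe sets passed as higher. Rac2, the GTPase of the complex, rose by 2.68 ± 0.09, and Cyba, its membrane subunit p22phox, by 1.98 ± 0.12. The cytosolic subunits Ncf4 and Ncf1 rose by 3.54 ± 0.36 and 2.73 ± 0.31. Padi4, which citrullinates histones in neutrophils, had signals of 1393, 1093 and 1069 at 36 weeks, against 20.1, 26.1 and 71.0 at 7 weeks. It passed as higher (limma adjusted p = 0.000323), but its signals at 7 weeks were so low that no size is given. Cybb, the catalytic subunit, had signals of 1756, 1896 and 1838 at 36 weeks, against 537.8, 567.4 and 109.6 at 7 weeks. Hvcn1, a proton channel, had a difference of 0.53 that did not pass (limma adjusted p = 0.0630). Of these 7 genes 4 (Ncf4, Ncf1, Padi4 and Cybb) entered the test through the 36-week arrays only.

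Of 17 regulators and receptors of the promyelocyte stage 9 rose (16.7% over all tested probe sets) and 2 fell (17.7%), with a median of 0.44. With arrays centred on their medians 7 rose and 2 fell. Csf2ra, Myb and Cd33 lay below the filter signal at 7 weeks and entered the test through the 36-week arrays. Csf2ra, a chain of the GM-CSF receptor, rose by 2.14 ± 0.21, and Csf3r, the G-CSF receptor, by 3.08 ± 0.45 (limma adjusted p = 0.000414). Spi1, which encodes PU.1, had signals of 1995, 1626 and 2240 at 36 weeks, against 722.6, 1103 and 617.0 at 7 weeks. It rose by 1.24 ± 0.22 (limma adjusted p = 0.00139). Whether Spi1 has a part in the rise of the members was not tested. Myb rose by 1.24 ± 0.18, again through an _x_at probe set, and Cebpd by 1.18 ± 0.17. The transcription factors Egr1 and Klf4 fell, with differences of -1.16 and -0.85. Cd34 of stem and endothelial cells and Runx1 had differences of -0.053 and -0.068 and did not pass.

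Genes of later granules rose as well. Of 17 tested genes of secondary and tertiary granules and the mature neutrophil 17 rose, with a median of 3.75. This list was chosen with earlier results of these data known, and 7 of its genes entered the test through the 36-week arrays only. Among all 13575 tested probe sets 16.7% passed as higher, and 1277 were above the filter signal at 1 age only. S100a9, Ltf, Pglyrp1 and Ngp, with differences of 3.74, 3.65, 4.73 and 3.93, had the smallest p. Lower differences stood at 1.20 for Anxa1, which many cells express, 1.74 for Itgb2l and 2.05 for Mmp9. The summed signal of the 17 genes lay between 726962 and 779468 on the 36-week arrays and between 59816 and 65223 on the 7-week arrays.

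Markers of other cells that carry related proteases or share the marrow were less uniform. Among all tested probe sets 16.7% passed as higher and 17.7% as lower. The counts of higher genes in the mast and cytotoxic list and in the monocyte list lie near that share. In the list of serine proteases of mast and cytotoxic cells 1 of 7 tested genes, Mcpt8, rose and 0 fell, with a median of 0.63 and summed signals of 8552 to 10134 at 36 weeks against 5425 to 7145 at 7 weeks. Of these 7 genes 4, Mcpt8 among them, entered the test through the 36-week arrays only. Of 4 eosinophil and basophil genes Epx and Mcpt8 rose, with a median of 0.65 and sums of 8108 to 9262 against 4886 to 5903. Epx and Mcpt8 both lay below the filter signal at 7 weeks and so were tested because they were high at 36 weeks. Of 11 monocyte and macrophage genes Mpeg1 and Ccr2 rose, by 1.49 ± 0.15 and 2.27 ± 0.56, and 0 fell. Ccr2 was below the filter signal at 7 weeks. Their median was 0.21 and their sums ran from 25112 to 26648 at 36 weeks, against 20332 to 21584 at 7 weeks. Csf1r, the receptor that defines these cells, had a difference of 0.19 ± 0.07 that did not pass (limma adjusted p = 0.0550).

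Of 10 erythroid genes 3 rose and 3 fell, against 16.7% higher and 17.7% lower over all tested probe sets. Their median was 0.28, with sums of 21430 to 22248 at 36 weeks, against 25763 to 27453 at 7 weeks. Nfe2, Epor and Sptb rose by 1.63, 0.40 and 0.50, Nfe2 with a 7-week mean below the filter signal. Slc4a1, the red cell anion exchanger, Tfrc and Ermap fell, with differences of -1.89, -1.06 and -1.02. The probe set of Slc4a1 was of the _x_at kind, which may cross-hybridise. When arrays were centred on their medians 1 erythroid gene rose. Of 6 B cell precursor genes 0 rose and Ebf1 fell by 1.00 ± 0.19, with sums of 5968 to 9206 against 7881 to 9002, which overlapped. That single fall is near the share over all tested probe sets. Of 6 megakaryocyte and platelet genes 5 rose and 0 fell, with a median of 0.84 and sums of 23806 to 27699 against 10791 to 12104. Ppbp and Pf4, platelet chemokines, rose by 1.59 ± 0.11 and 1.30 ± 0.11, Itga2b by 0.75 and Gp5 by 0.79. Of 15 cell cycle genes 13 rose and 0 fell, with a median of 0.65 and sums of 29189 to 32000 against 20744 to 21131. With arrays centred on their medians 12 rose and 1 fell. Plk1, Mcm5, Cdk1 and Mcm2 entered the test through the 36-week arrays only. Rrm2, Plk1, Ccna2 and Top2a rose by 0.70, 1.13, 0.65 and 0.91. Rrm2 was read by a probe set of the _x_at kind, and its dimmer probe set rose by 1.98, from a 7-week mean of 261.1. Rrm1 passed at 0.56, while a dimmer probe set of it differed by 0.053 and did not pass. Sizes and counts in this list thus depend on the probe set taken. The part of each of these cell types in the rise of the azurophil granule genes was not tested.

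**Figure D4:**
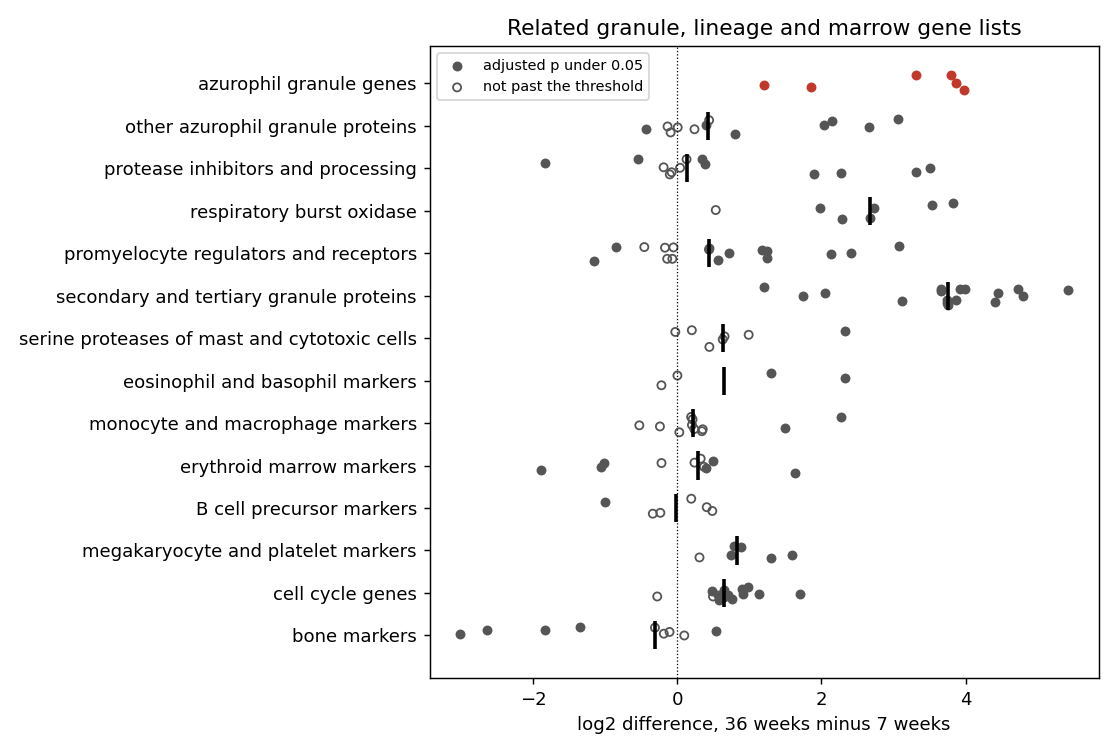
Log2 difference of each tested gene, 36 weeks minus 7 weeks, in the azurophil granule set (top, red) and in 13 lists of related granule, lineage and marrow genes. Filled points passed an adjusted p of 0.05, open points did not, and bars are list medians; the secondary granule list has its median at 3.75.

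Markers of cochlear cells and of bone were read as well, beside shares of 16.7% higher and 17.7% lower over all tested probe sets. What share of the RNA came from the cochlea at each age was not tested. Of 9 spiral ligament and supporting cell genes 8 fell and 0 rose, with a median of -2.03. Of these 8 genes 1 entered the test through the 7-week arrays only. Coch, the abundant matrix protein cochlin, still had a mean signal of 21556 at 36 weeks, against 82144 at 7 weeks. Otos, Epyc and Gjb2 fell, with differences of -2.42, -3.63 and -1.88. The summed signal of the list was 53292 to 54266 at 36 weeks, against 231620 to 239102 at 7 weeks. Of 5 hair cell genes Otof, otoferlin, fell by 0.40 ± 0.14 and 0 rose, with a median of 0.23. The call of Otof was near the threshold (limma adjusted p = 0.0462), and this single fall is near the share over all tested probe sets. With no filter on dim signals 0 of 9 hair cell genes fell and 1 rose. Of 9 bone genes 4 fell and Col1a1, also made by fibroblasts, rose by 0.53 ± 0.12, with a median of -0.31. The osteocyte and osteoblast genes Ibsp, Dmp1, Phex and Mepe fell, with differences of -3.02, -1.35, -1.84 and -2.64. Ibsp, Phex and Mepe lay below the filter signal at 36 weeks and entered the test through the 7-week arrays. How much bone and marrow each dissection held is not stated in the labels, and its part in the values above was not tested.

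Finally, the genes nearest in pattern to a member were sought among 8549 others, by the root mean square difference of log2 values centred on the mean of the 6 arrays. The measure follows the size of the age difference above all. For Mpo the nearest were S100a9 (0.076), Prl (0.10), Gh (0.10), Mmp8 (0.11) and Ngp (0.12). S100a9, Mmp8 and Ngp are neutrophil genes, while Prl and Gh encode the pituitary hormones prolactin and growth hormone. Prl had signals of 9849, 9361 and 9445 at 36 weeks, against 697.2, 695.8 and 671.9 at 7 weeks. Gh had signals of 65638, 66578 and 60300 at 36 weeks, against 3947, 3967 and 3491 at 7 weeks. Its mean was 16.9 times as high at 36 weeks, and its signals were above those of Mpo at each age. For Ctsc the nearest were Sncg (0.041), Dennd11 (0.045), Nlrx1 (0.048), Rhog (0.062) and Fam107b (0.070). Sncg, gamma-synuclein of peripheral neurons, had signals of 11179, 12500 and 10642 at 36 weeks, against 5006, 5129 and 4514 at 7 weeks.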

How the data were processed

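The submitters labelled cochlear RNA with biotin by in vitro transcription and hybridised each sample to an array of its own, per the labels' protocols. They deposited linear 1-colour intensity values per probe set. How probes were summarised was not given in the sources used here. The arrays had been scaled alike: trimmed means without the outer 2% lay between 1490 and 1493, and medians between 844.0 and 859.4 at 36 weeks and between 766.3 and 800.5 at 7 weeks. The absolute scale is unknown, genes were not centred, and the values give no detection calls. The number of arrays limits the precision.

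With R 4.3.3 and limma 3.58.1, log2(signal + 50) was fitted by lmFit and eBayes with intensity trend, 36 weeks minus 7 weeks, unpaired and two-sided, over 13575 of 22626 probe sets with a mean above the 40th percentile (a signal of 593.6). The offset understates changes of dim probe sets. Adjustment was by Benjamini-Hochberg over all tested probe sets. The fit was also run on simulated data with independent noise, as a check of the code, and no result here rests on it. Of all probe sets 20380 had 1 symbol, 691 several and 1555 none. Names were given to the first kind alone, a gene by its brightest tested probe set. Figures used Python 3.11.15 and matplotlib 3.10.9.

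Members, the 15 lists and tests were chosen with earlier results of these data known. The rule for names took all members, up to 4 genes per list and direction with the smallest p, chromosome neighbours, and the 5 nearest patterns to Mpo and to Ctsc. Members named outside it (Srgn, Nkg7, Cybb, Padi4, Spi1, Serpina1b, Cstb, Ctsl, Ctsb, Ctsh, Ctss, Cd34, Runx1, Csf1r, Anxa1, Itgb2l, Mmp9, Hexa, Gaa, Ctsz, Ctsd and Gusb) were chosen after their values were seen. Alternatives were offsets of 1 and 16, quantile and median scaling, no filter or the 60th percentile, no intensity trend, a replicate block, a 2-fold minimum and each array left out.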

Additional observations from a re-analysis of the deposited data

How the results depend on the processing

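Each of the 6 genes kept its direction and an adjusted p under 0.05 under all 14 alternatives run for it (limma), with log2 differences of 3.77 to 3.96 for Mpo, 3.88 to 4.05 for Prtn3, 3.51 to 4.25 for Ctsg, 3.21 to 3.39 for Elane, 1.70 to 2.01 for Ms4a3 and 1.11 to 1.25 for Ctsc. The largest adjusted p was 0.000461, that of Ctsg without the intensity trend. Ctsg is limited by its dim signal at 7 weeks. Its ratio to Mpo, -0.069, was 0.12 with an offset of 1 and 0.059 with an offset of 16, and -0.33 to 0.34 with each array left out; the cause was not tested. A 2-fold minimum left 1253 of 4665 called probe sets, fewer by construction. Centring on array medians put the median of all tested probe sets at -0.085, against 0.018. With it the list medians were 0.55 for cell cycle, 0.18 for erythroid, 0.73 for megakaryocyte, 0.32 for other azurophil, 0.34 for promyelocyte regulator, 0.026 for protease inhibitor and 3.65 for secondary granule genes. With no filter, which adds dim genes, the medians were 0.17 for B cell precursor genes, against -0.021, and 0.22 for protease inhibitors. Otof then lost its call, with 1 hair cell gene higher and 0 lower of 9. Same-numbered arrays did not deviate together (correlations of 0.049, -0.010 and -0.002), so the numbers were not read as pairs. With the replicate block 4375 probe sets passed, and the 6 genes passed as well.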
